A study of Homo sapiens with 6 samples.

Results

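The genes described here encode 3 groups of nuclear RNA-binding proteins that act on pre-mRNA: the SR proteins (symbols starting with SRSF), the heterogeneous nuclear ribonucleoproteins or hnRNPs (HNRNP), and the SF3A and SF3B subunits of the U2 small nuclear ribonucleoprotein (snRNP). They were taken by symbol alone, as protein-coding rows of the count table whose symbol begins with one of those prefixes. This gave 45 of 57820 gene rows, with 11 SRSF, 25 HNRNP, 3 SF3A and 6 SF3B genes. A filter on low counts left 42 of them to test, including every SRSF, SF3A and SF3B gene. The 3 others, HNRNPCL1, HNRNPCL4 and the readthrough gene HNRNPUL2-BSCL2, had at most 3 counts in any library.

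RNA came from HEK293T, a transformed human embryonic kidney cell line. All 6 libraries are from cells given RfxCas13d, an RNA-guided nuclease that cuts RNA rather than DNA. In 3 of them (NT) it was paired with a crRNA that has no target, the negative control, and in 3 (TAR) with a crRNA against mCherry, which codes for a red fluorescent protein and is absent from the human genome. The labels do not say whether the cells expressed mCherry, how the effector was delivered or for how long. The cells are 1 line grown at 37 °C in 10% CO2. Labels call the libraries biological replicates without saying how they were separated. The p-values judge the difference between TAR and NT against the spread between these libraries, which may not be that of independent cultures.

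SR proteins bind short exonic sequences through RNA recognition motifs and recruit the splicing machinery through a domain rich in arginine and serine. The hnRNPs coat nascent transcripts, and many of them oppose SR proteins at nearby sites, so that the balance of both groups helps to set which exons are kept. SF3A and SF3B join the U2 snRNP and hold it at the branch site, where the first step of splicing takes place. Many genes of the first 2 groups limit their own expression by splicing in an exon with a premature stop codon, which sends the transcript to nonsense-mediated decay.

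For genes with such transcripts, a gene count sums productive and decay transcripts and cannot separate them. In GENCODE release 29 all 11 SRSF genes have at least 1 transcript annotated for nonsense-mediated decay, as do 14 of 25 HNRNP and 3 of 9 SF3A and SF3B genes. The share among all protein-coding genes tested was 42.3%, or 5699 of 13472. This share depends on how many transcripts a gene has, a median of 10 for HNRNP genes and 7 for all tested. By transcript, 24 of 112 were annotated for decay in SRSF, 31 of 290 in HNRNP and 4 of 73 in SF3A and SF3B genes. Over all protein-coding genes tested it was 12810 of 124097. In 11 of the 45 genes the premature stop lies inside an internal exon that no protein-coding transcript of the gene overlaps, and 6 of these are SRSF genes. Of the 11, the readthrough gene HNRNPUL2-BSCL2 has only 1 transcript, the decay one, so it meets this rule by default. For 4 SR genes the longest such exon is shown from its first base to its stop codon, on the strand of the transcript, to let a reader see what such an exon adds. Capitals at the end mark the stop codon, and the inner capitals in SRSF4 and SRSF6 mark a run of 20 bases, the longest shared by their stretches shown. Within the stretches shown, no other pair among the 4 shares more than 6 bases. The rest of each exon was not compared.
SRSF3: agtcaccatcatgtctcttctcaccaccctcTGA
SRSF4: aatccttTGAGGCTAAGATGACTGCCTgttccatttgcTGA
SRSF6: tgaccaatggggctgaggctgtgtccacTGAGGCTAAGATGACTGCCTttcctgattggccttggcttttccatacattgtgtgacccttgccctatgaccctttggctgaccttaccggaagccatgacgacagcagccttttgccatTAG
SRSF7: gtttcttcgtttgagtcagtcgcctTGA
On GRCh38 these exons lie at chr6:36599821-36600276 (plus strand, 456 bases), chr1:29159864-29160058 (minus strand, 195 bases), chr20:43459153-43459420 (plus strand, 268 bases) and chr2:38748898-38749346 (minus strand, 449 bases). The counts hold no information on how often any of them was included.

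Library totals lay between 21321850 and 25906275 counts, and 2 of the 19676 genes tested were called, HMOX1 and MAP1A, neither of them a splicing factor. The non-coding RNA 7SK varied between libraries, with 0.516%, 1.15% and 1.37% of counts in NT replicates 1 to 3 and 0.716%, 0.439% and 1.15% in TAR replicates 1 to 3. NT replicates 2 and 3 and TAR replicate 3 are therefore a set with a 7SK share above 1%, and the other 3 libraries a set below it. This split was drawn from the counts of these same libraries. Of 8 kidney and neuronal genes listed as HEK293T markers, 6 were matched and all 6 were tested, VIM among them, with a summed level of 416.7 to 519.4 CPM (counts scaled to the effective size of each library, which compare libraries but not genes) in NT and 375.5 to 465.7 CPM in TAR libraries. Of 14 matched markers of blood, endothelium, liver, fibroblasts and epithelium, 6 had no count in any library, and all 14 together reached 7.21 to 9.21 CPM in NT and 7.57 to 8.95 CPM in TAR.

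Most of these splicing genes were abundant. To compare genes with each other, counts were divided by the length of the longest annotated transcript and scaled to the same sum in every library (TPM), and the levels in this paragraph are NT means with the SD over 3 libraries. The 4 highest were all hnRNP genes. HNRNPK, whose protein binds C-rich RNA, was at 625.3 ± 9.81 TPM (SD, n = 3), HNRNPC, a binder of uridine tracts, at 590.3 ± 30.2, HNRNPA1, a repressor of exon inclusion, at 563.9 ± 26.6, and HNRNPAB, whose locus overlaps an abundant gene on the opposite strand, at 543.7 ± 17.9. HNRNPC, HNRNPA1 and HNRNPAB stood within the spread of their neighbours in this order. Among SR genes SRSF11 (338.7 ± 77.9) and SRSF2 (327.4 ± 32.7) were highest and SRSF12 (16.5 ± 2.00) lowest. SF3B6 (405.5 ± 46.9) and SF3A2 (265.3 ± 30.7) led the SF3 genes, and SF3B4 (105.3 ± 10.6) was the lowest of them. The lowest of the 42 tested genes were SRSF12, HNRNPA1L2 (17.9 ± 4.11), HNRNPUL2 (27.1 ± 3.39) and HNRNPLL (28.5 ± 4.18). With the summed length of all exons instead, 8 of the 10 highest genes were the same. The 4 highest were also the same genes, but in another order. HNRNPA1 was then at 591.5, HNRNPAB at 590.3, HNRNPC at 471.2 and HNRNPK at 466.3 TPM, so their order depends on the length used.

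All 45 genes together took 1.21%, 1.28% and 1.21% of counts in NT replicates 1 to 3, and 1.28%, 1.34% and 1.32% in TAR replicates 1 to 3. The 3 TAR libraries were above the 3 NT libraries, the nearest pair by a narrow margin (two-sided exact permutation p = 0.1, which is as small as 20 assignments allow). With 7SK left out of the total, the shares overlapped (two-sided exact permutation p = 0.2). Of protein-coding counts they were 1.316%, 1.398% and 1.322% in NT and 1.401%, 1.453% and 1.451% in TAR. There the groups did not overlap (two-sided exact permutation p = 0.1). By family, SRSF and HNRNP shares were higher and the SF3A share lower in TAR. On each of these totals their groups did not overlap (two-sided exact permutation p = 0.1). The SF3B share overlapped (two-sided exact permutation p = 0.5 to 0.8). In bulk RNA, fewer cells making a transcript and less transcript per cell cannot be told apart.

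None of the 42 tested genes was called between TAR and NT by edgeR's quasi-likelihood test at an adjusted p under 0.05, against 0.0102% of all genes tested. The members' log2 fold changes ran from -0.23 to 0.34, a change of at most 1.26-fold. Their median was 0.081, with 28 above 0 and 14 below. Over all 19676 genes the median was -0.0037, with 9713 above 0 and 9963 below. At an unadjusted p under 0.05, 8 members were higher and 1 was lower. The same threshold took 10.0% of all genes tested as higher and 6.09% as lower. In 12 members (28.6%) every TAR library lay above every NT library, and in 3 (7.14%) every TAR library lay below. Over all genes tested these shares were 12.6% and 9.37%. After a correction for GC content, described with the GC results, 4 members were separated upward and 1 downward (all genes: 6.49% and 6.83%). Those upward were HNRNPA1L2, HNRNPH3, HNRNPM and SRSF10, and the one downward was SF3A1. Without NT replicate 1 the counts were 12 and 8 (all genes: 22.8% and 21.3%), and that omission leaves NT with high-7SK libraries only. DESeq2 called 0.879% of genes, 0 of the members among them, and edgeR after GC correction 0.00508% and again 0 members. Members were called in 5 of 18 alternative fits. With a term for the 7SK library set, SF3B6, HNRNPH3, HNRNPA3 and SRSF10 passed, all higher, in a fit that called 3.62% of all genes, and with the GC correction added SF3B6 alone did (0.219% of all genes). With the replicate number as a block, SRSF10, HNRNPH3, HNRNPA3 and HNRNPR passed, all higher (6.14% of all genes). Without NT replicate 1, HNRNPH3 and SRSF10 passed (8.98% of all genes), and with no filter on low counts SF3B6 passed (1.68% of all genes).

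Among the 11 SR genes 9 had a log2 fold change above 0, with a median of 0.098 that turned to -0.065 after GC correction, when 2 were above 0. SRSF10 (GRCh38 chr1:23964804-23980927, minus strand) encodes an SR protein that turns into a general repressor of splicing when it loses its phosphates, as in heat shock. It stood at 63.5, 64.1 and 57.3 CPM in NT replicates 1 to 3 and at 83.8, 73.1 and 75.8 CPM in TAR replicates 1 to 3. All 3 TAR libraries were above all NT libraries. Its log2 fold change was 0.33 ± 0.09 (SE), 1.26-fold, and edgeR's quasi-likelihood test gave an adjusted p of 0.194. It had the smallest p of the members and did not pass. The groups stayed apart after GC correction, at 0.15 ± 0.08.

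SRSF11, a divergent SR protein also known as p54, was at 538.8, 490.9 and 408.9 CPM in NT and at 551.3, 569.8 and 552.5 CPM in TAR. The TAR values lay close together above a wide NT range, whose lowest value was NT replicate 3. The log2 fold change was 0.22 ± 0.11 (edgeR adjusted p = 0.342), and -0.022 ± 0.090 after GC correction. SRSF2, which binds exonic enhancers and is enriched in nuclear speckles, was at 283.1, 388.1 and 346.3 CPM in NT and at 302.3, 340.1 and 361.6 CPM in TAR. These ranges overlapped (log2 fold change -0.019 ± 0.12, edgeR adjusted p = 0.95), and replicate 1 was the lowest of its group in NT and in TAR.

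SRSF1, the founding member of the family, was separated as well, from 295.4 to 344.5 CPM in NT and from 353.0 to 366.5 CPM in TAR. It did not pass, at 0.18 ± 0.09 (edgeR adjusted p = 0.33), and after GC correction it was at 0.033 ± 0.09 with overlapping groups. SRSF2 and 7 others, SRSF3, SRSF4, SRSF5, SRSF6, SRSF7, SRSF9 and SRSF12, overlapped between groups. SRSF3 and SRSF7, which also act in mRNA export, ranged from 277.5 to 323.6 and from 152.6 to 190.1 CPM in NT and from 300.0 to 320.5 and from 171.7 to 190.4 CPM in TAR. SRSF4, SRSF5 and SRSF6, which each carry a pair of RNA recognition motifs, had log2 fold changes of 0.042 ± 0.08, 0.11 ± 0.10 and 0.079 ± 0.09. SRSF12, the least abundant, was at 21.1, 22.3 and 19.9 CPM in NT and 21.5, 24.8 and 24.5 CPM in TAR. SRSF9 was the other SR gene below 0, at 135.1, 164.9 and 160.6 CPM in NT and 131.0, 138.2 and 145.5 CPM in TAR. Its log2 fold change was -0.15 ± 0.09, and -0.28 ± 0.11 after GC correction (edgeR adjusted p = 0.716).

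Of the 22 tested hnRNP genes 17 were above 0, with a median of 0.11, and after GC correction 13 were above 0 with a median of 0.0046. HNRNPH3 (chr10:68331174-68343191, plus strand), related to the G-run binders HNRNPH1 and HNRNPF, was at 108.1, 110.3 and 101.5 CPM in NT and 124.0, 134.7 and 134.0 CPM in TAR. The groups did not overlap, the log2 fold change was 0.30 ± 0.08 and the edgeR adjusted p was 0.194. It stayed separated after GC correction, at 0.20 ± 0.08 (edgeR adjusted p = 0.716). HNRNPH3 shares its locus with genes on the opposite strand, the largest of which holds 8481 counts against its 17116, and no source used here gives the strand setting of the counting. The same holds for HNRNPAB (29763 counts against its own 51048), SRSF9 (8694 against 21019), HNRNPA2B1 (23712 against 88856) and SF3A2 (6219 against 26485), so their values and levels carry that doubt.

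HNRNPA3, a relative of HNRNPA1 and HNRNPA2B1, was at 401.6, 422.3 and 380.0 CPM in NT and 454.8, 504.1 and 511.6 CPM in TAR. HNRNPA2B1, known for sorting RNAs as well as for splicing, was at 551.0, 608.1 and 541.5 CPM in NT and 624.2, 673.6 and 699.8 CPM in TAR. Neither overlapped between groups, with log2 fold changes of 0.29 ± 0.09 and 0.23 ± 0.09 (edgeR adjusted p = 0.208 and 0.265). After GC correction they were 0.050 ± 0.10 and 0.049 ± 0.11, and the groups overlapped.

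HNRNPR, which binds RNA in the nucleus and in axons, was at 318.2, 334.0 and 284.0 CPM in NT and 361.2, 388.9 and 376.5 CPM in TAR. HNRNPU, a scaffold protein that binds chromatin and RNA, was at 694.5, 720.9 and 642.0 CPM in NT and 798.2, 841.6 and 837.3 CPM in TAR. In each the lowest library was NT replicate 3 and no TAR library reached down to the NT range. Both had a log2 fold change of 0.27 ± 0.09 (edgeR adjusted p = 0.216 and 0.223), and after GC correction 0.0012 ± 0.096 and 0.042 ± 0.10.

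HNRNPA1L2, a close copy of HNRNPA1 elsewhere in the genome, was at 9.94, 7.76 and 8.28 CPM in NT and 11.4, 10.1 and 10.8 CPM in TAR. TAR replicate 2 was just above NT replicate 1, and the log2 fold change was 0.32 ± 0.14 (edgeR adjusted p = 0.29). The groups of HNRNPA1L2 stayed apart after GC correction, at 0.26 ± 0.13 (edgeR adjusted p = 0.735). Reads of near-identical copies can be assigned to either, so its count is uncertain. The table also holds 138 pseudogene rows named after 23 of the members. The 74 rows named after HNRNPA1 summed to 3.91% of its counts, from 3.65% to 4.41% over the libraries, and those named after HNRNPC to 2.39%. For 18 of the 23 the sum was below 1% of the gene.

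The most abundant hnRNP genes overlapped between groups. HNRNPK was at 581.8, 689.8 and 707.3 CPM in NT and 653.0, 682.8 and 744.3 CPM in TAR, with a log2 fold change of 0.072 ± 0.10 (edgeR adjusted p = 0.769). HNRNPC was at 805.2, 1025.5 and 1033.3 CPM in NT and 881.1, 913.4 and 971.9 CPM in TAR, at -0.050 ± 0.11 (edgeR adjusted p = 0.863). In both, replicate 1 was the lowest library of its group. HNRNPA1 ranged from 746.8 to 895.5 CPM in NT and from 796.5 to 979.4 CPM in TAR. HNRNPH2 and HNRNPLL, the latter an HNRNPL relative known from T cells, were separated upward without an unadjusted p under 0.05, at 0.20 ± 0.10 and 0.17 ± 0.09. After GC correction they were at 0.069 ± 0.11 and -0.036 ± 0.08 and overlapped, so that HNRNPLL turned its sign. The remaining tested hnRNP genes, HNRNPA0, HNRNPA1L3, HNRNPAB, HNRNPD, HNRNPDL, HNRNPF, HNRNPH1, HNRNPL, HNRNPM, HNRNPUL1 and HNRNPUL2, overlapped between groups. Their log2 fold changes lay between -0.13 for HNRNPUL1 and 0.21 for HNRNPDL. Of these, HNRNPM became separated upward after GC correction, at 0.18 ± 0.08 (edgeR adjusted p = 0.717).

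The 9 SF3 genes leaned the other way, with 7 below 0, SF3A2 and SF3A3 only slightly, and a median of -0.13. After GC correction the median became -0.057 with 6 below 0. Over all 19676 genes tested, 9963 were below 0, and 10421 after GC correction. SF3A1 (chr22:30331988-30356947, minus strand), the largest SF3A subunit, was at 321.6, 333.9 and 338.8 CPM in NT and 266.2, 292.0 and 288.2 CPM in TAR. Every TAR library was below every NT library. Its log2 fold change was -0.23 ± 0.08, 1.17-fold lower, with an edgeR adjusted p of 0.229. It is the 1 member at an unadjusted p under 0.05 that was lower, and it remained the 1 separated downward after GC correction, at -0.19 ± 0.08 (edgeR adjusted p = 0.724). On the per-length scale it was at 195.1, 176.2 and 170.6 TPM in NT and 151.5, 179.7 and 150.1 TPM in TAR, where TAR replicate 2 lay inside the NT range. For any single gene the length cancels, so TPM and CPM differ only by a factor for each library. SF3A2 and SF3A3, the partners of SF3A1, overlapped between groups. SF3A2 was at 189.2, 178.8 and 188.1 CPM in NT and 188.4, 184.7 and 175.9 CPM in TAR, with a log2 fold change of -0.018 ± 0.077, and SF3A3 was at -0.0016 ± 0.082.

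SF3B6 (chr2:24067584-24076443, minus strand), the small protein that lies at the branch adenosine, gave the largest fold change of the 42. It was at 89.2, 129.1 and 118.9 CPM in NT and 135.2, 126.4 and 164.1 CPM in TAR, where TAR replicate 2 fell inside the NT range. On the per-length scale the groups did not overlap, with 361.6 to 455.0 TPM in NT and 514.0 to 570.8 TPM in TAR. For a single gene this scale differs from CPM only by a factor for each library, so the gap is no separate evidence. The log2 fold change of SF3B6 was 0.34 ± 0.14 (edgeR adjusted p = 0.272). Within the low-7SK libraries, NT replicate 1 (89.2 CPM) was below TAR replicates 1 and 2 (135.2 and 126.4), and within the high-7SK libraries NT replicates 2 and 3 (129.1 and 118.9) were below TAR replicate 3 (164.1). The sets were drawn from these same libraries, and each holds a single library of NT or of TAR. The order within them is therefore no independent evidence, and calls made with the set term depend on that split. With a term for that library set, SF3B6 was called at 0.48 ± 0.08 (edgeR adjusted p = 0.00135, where 3.62% of all genes were called). With the term and the GC correction together it was called at 0.38 ± 0.07 (edgeR adjusted p = 0.0198, where 0.219% of all genes were called), as the only member. After GC correction alone it was at 0.21 ± 0.17 (edgeR adjusted p = 0.817). It was at 0.19 ± 0.10 without NT replicate 1 and at 0.21 ± 0.14 without TAR replicate 3. Its adjusted p over the alternatives ran from 0.00135 to 0.817.

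SF3B1, the largest SF3B subunit and the one most often mutated in blood cancers, was at 391.9, 387.4 and 380.9 CPM in NT and 405.8, 438.2 and 428.8 CPM in TAR. The groups were separated but the gene did not pass (0.13 ± 0.08, edgeR adjusted p = 0.45), and after GC correction it was at -0.022. SF3B3 and SF3B4 were separated in the other direction. SF3B3, a scaffold subunit, was at 621.3, 658.4 and 665.7 CPM in NT and 579.0, 613.3 and 591.0 CPM in TAR (-0.13 ± 0.09, edgeR adjusted p = 0.506). SF3B4, which contacts RNA upstream of the branch site, was at 76.4, 82.9 and 75.4 CPM in NT and 66.7, 69.6 and 74.8 CPM in TAR (-0.15 ± 0.08, edgeR adjusted p = 0.388). After GC correction SF3B3 was at -0.12 ± 0.09 and SF3B4 at -0.057 ± 0.08, and the groups of both overlapped.

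SF3B2 overlapped between groups at -0.13 ± 0.11. SF3B5 varied most within a group, at 25.1, 38.4 and 44.0 CPM in NT and 29.5, 24.7 and 40.6 CPM in TAR, with a log2 fold change of -0.18 ± 0.23 (edgeR adjusted p = 0.734). Its coefficient of variation over the NT libraries was 27.1%, against 1.43% for SF3B1. The 3 libraries with a 7SK share above 1% were the 3 highest for SF3B5. Counted within each library, where scaling cancels, SF3B1 had 1.22, 1.16 and 1.12 counts per SF3A1 count in NT and 1.52, 1.5 and 1.49 in TAR. This ratio was picked after the values were seen and carries no test, and the 2 transcripts differ in GC content, 41.0% for SF3B1 and 50.9% for SF3A1.

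**Figure D1:**
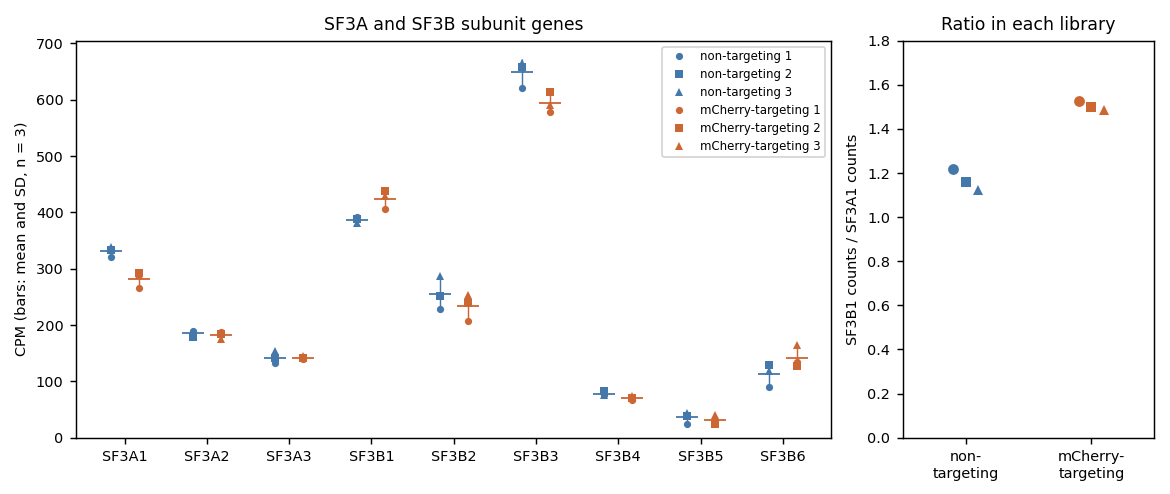
Left, CPM of the 9 SF3A and SF3B genes in each library, with the mean and SD of the 3 libraries of a group. Right, the ratio of SF3B1 to SF3A1 counts in each library, from 1.12 to 1.22 in NT and from 1.49 to 1.52 in TAR.

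Fold changes of the members followed the GC content of their transcripts, as did those of protein-coding genes in general. Across the 42 members Spearman's correlation of fold change with the GC content of the longest transcript was -0.57, and across 13472 protein-coding genes tested it was -0.68. Genes share the same 6 libraries and are not independent, so neither value carries a p. Of the 13 members below 40% GC, 12 were above 0, with a median of 0.17 where all protein-coding genes of that range had 0.24. Of the 13 between 40% and 45%, 12 were above 0 (median 0.11, all protein-coding 0.11). Between 45% and 50% the count was 2 of 8 (-0.026, all protein-coding -0.020), and above 50% it was 2 of 8 (-0.093, all protein-coding -0.14).

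The families differ in this property, with a median GC content of 40.4% for the SR genes, 42.6% for the tested hnRNP genes and 48.5% for the SF3 genes, and 48.6% for all protein-coding genes tested. The GC content of the 250 bases upstream of the RefSeq start, known for 38 members, was less related to fold change (Spearman -0.15, and -0.16 over 10882 protein-coding genes). In the GC-corrected fit each library's smooth trend of log2 CPM on GC content was removed. The members' median was then -0.022, with 18 above 0 and 24 below, against -0.012 for all genes. Spearman's correlation of the members' corrected fold change with transcript GC content was 0.23, so its sign had turned. By family it was 0.41 for the tested hnRNP genes, -0.16 for the SR genes and -0.12 for the SF3 genes. At an unadjusted p under 0.05, 2 members were then higher (HNRNPH3 and HNRNPM) and 2 lower (SF3A1 and SRSF9), where all genes gave 3.46% and 3.30%.

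Splicing genes outside these families were read from the same fit, in 4 lists with 75 matched genes, all of which were tested. None was called, with 15 higher and 3 lower at an unadjusted p under 0.05, where all genes gave 10.0% and 6.09%, and a median of 0.016. After GC correction 2 were higher and 0 lower at that threshold (all genes: 3.46% and 3.30%), with a median of -0.0028. Among 15 regulators and relatives of SR proteins 4 were higher at that threshold and 0 lower. SREK1, an SR-related protein, was at 184.5, 164.5 and 128.6 CPM in NT and 227.9, 208.5 and 196.2 CPM in TAR. CLK1, a kinase that phosphorylates SR proteins, was at 61.7, 59.6 and 49.8 CPM in NT and 80.2, 67.6 and 65.8 CPM in TAR. Neither overlapped, with log2 fold changes of 0.41 ± 0.12 and 0.32 ± 0.11 (edgeR adjusted p = 0.2 and 0.216). After GC correction they were at 0.15 and 0.059, and 0 genes of this list were higher or lower at the unadjusted threshold.

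Of 19 genes for the U2 snRNP and its partners 6 were higher and 2 lower at the unadjusted threshold. U2SURP, a protein associated with the U2 snRNP, and the helicase gene DDX46 were at 0.37 ± 0.10 and 0.30 ± 0.08 (edgeR adjusted p = 0.194 for each). SF1, which recognises the branch site before the U2 snRNP does, and the splicing regulator RBM10 were at -0.25 ± 0.09 and -0.22 ± 0.08 (edgeR adjusted p = 0.235 and 0.243). After GC correction 1 gene of this list was higher and 0 lower. Among 17 hnRNP-type proteins with other symbols 4 were higher and 0 lower, among them MATR3 (0.28 ± 0.09) and SYNCRIP (0.24 ± 0.09). After GC correction 0 were higher or lower at that threshold, 5 of the 17 were above 0, and MATR3 and SYNCRIP were at 0.050 and -0.010. Among 24 genes of the other snRNPs 1 was higher, the Sm core gene SNRPF (0.37 ± 0.11), and 1 lower, the U5 GTPase gene EFTUD2 (-0.21 ± 0.09), with a list median of -0.077. After GC correction 1 was higher, 0 were lower and the median was 0.00047.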

How the data were processed

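The authors deposited raw counts per gene for 6 libraries. Per the submitters' processing notes, cutadapt 4.4, STAR 2.7.4a and hg19 (GRCh37) were used. No source used here names the counting tool or its strand setting. Per the labels' protocols, poly(A) RNA was primed at random with dUTP strand marking. Symbols, positions, lengths and GC content come from GENCODE release 29 (GRCh38), which matched 52338 of 57820 identifiers without version, with current symbols from a table of gene names. An mCherry or RfxCas13d row was not analysed here.

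Counts were tested in edgeR 4.0.16 (R 4.3.3) with TMM scaling, filterByExpr, a robust quasi-likelihood fit on group and Benjamini-Hochberg adjustment over 19676 genes. DESeq2 1.42.0 and limma 3.58.1 (voom) were alternatives. On counts simulated for the TAR against NT comparison (19360 genes), 99.0% of 2-fold and 75.0% of 1.5-fold changes were recovered, with 9 false calls. The simulated biological coefficient of variation was 0.113. The largest change of a member, 1.26-fold for SF3B6, is smaller than any change simulated. The simulation therefore does not say how often changes of the members' size would be recovered. Recovery of 1.5-fold and 2-fold changes was not tested on the real libraries either. In the real fit MAP1A, at a log2 fold change of -0.96 ± 0.12, had an edgeR adjusted p of 0.0319, close to the threshold. The simulated percentages are therefore not the power of the real fit. GC correction was a loess trend (span 0.5) per library. Total counts of 21321850 to 25906275 limit precision, and intervals are SE or SD. Replicate numbers were not treated as pairs in the main fit, because the labels give no batch or pairing. Same-numbered libraries deviated together with correlations of 0.23, 0.043 and 0.33, so a pairing remains possible. A fit with the replicate number as a block was therefore run as an alternative.

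Members and lists were chosen with earlier results of these data known. Given in full are members called, members with an unadjusted p under 0.05 and a mean CPM of at least 5 (up to 12 in each direction), the 2 of highest TPM in each family, all SF3 genes, and of each pathway list up to 2 genes in each direction. SRSF1, SRSF9, HNRNPH2, HNRNPLL, HNRNPM and the SF3B1 to SF3A1 ratio were added after their values were seen.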

Additional observations from a re-analysis of the deposited data

How the results depend on the processing

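The count of called genes was 2 and depended on the fit: 1 with limma-voom, the GC correction, unscaled library sizes or a minimum mean CPM of 5, 597 with no filter, 173 with DESeq2, 712 with the library set term (43 with GC correction added), and 1 to 1806 on leaving out a library, the highest without NT replicate 1. The count of called members was 0 in 13 of 18 alternatives, and 1 with no filter (SF3B6), 4 with the library set term (SF3B6, SRSF10, HNRNPH3, HNRNPA3), 1 with that term and GC correction (SF3B6), and 0 to 2 on leaving out a library (SRSF10 and HNRNPH3 without NT replicate 1). Called pathway genes, 0 at first, were 2 with no filter, 8 and 1 with the library set term alone and with GC correction, 1 with DESeq2 (U2SURP), and 0 to 8 on leaving out a library. With a replicate block, 1209 genes (6.14%), 4 members (SRSF10, HNRNPH3, HNRNPA3, HNRNPR) and 7 pathway genes were called, and with the replicate block and GC correction 6, 0 and 0. NT replicates 1 and 3 correlated best with the TAR library of their own number. NT replicate 2 correlated about equally with TAR replicate 3 (0.045) and TAR replicate 2 (0.043). The causes were not tested.

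The members' median of 0.081 was -0.022 with GC correction and -0.023 with the replicate block and GC correction, and 0.035 to 0.12 on leaving out a library. The difference in share of counts kept its sign in 8 of 8 alternatives. The summed NT level was 8968 TPM, and 8105 with exon union lengths. Signs turned for uncalled genes. With GC correction HNRNPK was -0.058, SF3A2 0.15, SF3A3 0.0056, SF3B1 -0.022, SRSF11 -0.022, HNRNPLL -0.036 and SYNCRIP -0.010. With the replicate block and GC correction HNRNPK was -0.050, SF3A2 0.15, SF3A3 0.0087, SF3B1 -0.023, SRSF11 -0.023 and SYNCRIP -0.011. With the library set term HNRNPC was 0.037, SF3A3 0.035, SF3B5 0.041 and SRSF2 0.080, and with GC correction added SF3A2 was 0.096, SF3A3 0.052, SF3B5 0.14, SRSF11 -0.018 and SRSF2 0.051. SF3A3 was 0.016 with unscaled library sizes, 0.0040 with a minimum mean CPM of 5, 0.00073 with the replicate block and 0.00076 with limma-voom. On leaving out a library the ranges were -0.16 to 0.0077 for HNRNPC, -0.011 to 0.12 for HNRNPK, -0.044 to 0.0072 for SF3A2, -0.052 to 0.054 for SF3A3 and -0.13 to 0.088 for SRSF2. Separation of the groups under GC correction and without NT replicate 1 was examined after seeing the data.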
